A study of Rattus norvegicus with 14 samples.

Results

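The 35 genes described belong to glucose uptake, glycolysis, lactate and pyruvate handling and glycogen metabolism in cultured rat heart muscle cells. The genes were taken from a list of 37 symbols by name, without use of their values, and 35 of the 13185 genes measured on the arrays matched. Dlat, which no probe set used here names, and Pkm, whose probe set carries a second symbol, are not analysed here.

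Neonatal rat ventricular myocytes were isolated from hearts of Sprague-Dawley pups aged 2 days, and total RNA was hybridised to 14 Affymetrix arrays. The groups were JQ1 with phenylephrine (PE, 100 µM), with 3 arrays at 6 h and 3 at 48 h, DMSO with PE, with 2 arrays at 6 h and 3 at 48 h, and DMSO without PE, with 3 arrays at 90 min. JQ1 keeps BET bromodomain proteins off acetylated histones, DMSO is its solvent, and PE is an alpha-adrenergic agonist that makes cultured myocytes grow in size. All cells shared the strain, the age, a plating step to deplete non-myocytes and serum-free medium with an insulin-transferrin-selenium supplement, and all received JQ1 or DMSO. According to the labels' protocol JQ1 or DMSO preceded PE by 6 h, while the design text has PE first, and the order is not settled here. The dose of JQ1 is not stated in the sources used here. The cells are newborn cells in culture, and the arm without PE ended at 90 min, so that PE and time in culture differed together and cannot be told apart. Whether replicate arrays stem from separate cultures is not said, so the p-values reflect the spread among these arrays alone, which may be technical.

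Glucose enters heart muscle cells through carriers of the Slc2a family, is trapped by hexokinase as glucose 6-phosphate and is then either stored as glycogen or broken down to pyruvate. Phosphofructokinase makes the committed step of glycolysis. Pyruvate is reduced to lactate, which leaves through carriers of the Slc16a family, or enters mitochondria through pyruvate dehydrogenase, an enzyme that the Pdk kinases switch off. Many of these steps have isoforms encoded by separate genes, some typical of adult striated muscle (Slc2a4, Hk2, Pfkm, Pgam2, Eno3, Pygm) and others known mainly from other tissues (Pfkp, Pfkl, Aldoc, Eno2, Pygl).

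The promoters of 5 members whose levels changed with PE or JQ1 are shown so that the genes can be placed in the genome and the short motifs found in them can be seen. The windows run from 250 bases before to 50 bases after the annotated gene start, 5′ to 3′ on the strand of the gene, from RefSeq (GRCr8). They are Aldoc (chr10:63715294-63715593, plus strand), Pfkm (chr7:131113849-131114148, plus), Pygb (chr3:160071891-160072190, plus), Eno3 (chr10:55868936-55869235, plus) and Pgam2 (chr14:84897825-84898124, minus).
Aldoc: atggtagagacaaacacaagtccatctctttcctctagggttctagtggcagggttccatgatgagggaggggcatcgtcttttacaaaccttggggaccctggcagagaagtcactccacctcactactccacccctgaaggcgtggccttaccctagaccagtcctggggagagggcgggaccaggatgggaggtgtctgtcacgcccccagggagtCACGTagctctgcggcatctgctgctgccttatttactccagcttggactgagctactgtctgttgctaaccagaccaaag
Pfkm: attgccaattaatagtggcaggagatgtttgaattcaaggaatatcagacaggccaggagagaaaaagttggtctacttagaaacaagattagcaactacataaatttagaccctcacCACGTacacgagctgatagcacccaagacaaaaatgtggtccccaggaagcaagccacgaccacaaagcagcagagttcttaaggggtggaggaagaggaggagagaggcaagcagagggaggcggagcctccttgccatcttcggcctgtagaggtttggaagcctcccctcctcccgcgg
Pygb: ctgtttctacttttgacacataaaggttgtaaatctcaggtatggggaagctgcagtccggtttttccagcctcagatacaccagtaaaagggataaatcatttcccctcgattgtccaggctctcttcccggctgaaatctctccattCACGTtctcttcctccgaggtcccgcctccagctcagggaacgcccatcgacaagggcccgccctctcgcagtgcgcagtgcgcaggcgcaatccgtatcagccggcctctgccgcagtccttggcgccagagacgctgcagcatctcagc
Eno3: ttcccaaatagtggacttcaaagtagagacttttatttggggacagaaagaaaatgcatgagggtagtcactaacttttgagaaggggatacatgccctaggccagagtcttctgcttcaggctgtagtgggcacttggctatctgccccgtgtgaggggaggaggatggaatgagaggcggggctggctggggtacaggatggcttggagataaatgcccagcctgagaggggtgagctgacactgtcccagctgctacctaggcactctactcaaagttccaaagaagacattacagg
Pgam2: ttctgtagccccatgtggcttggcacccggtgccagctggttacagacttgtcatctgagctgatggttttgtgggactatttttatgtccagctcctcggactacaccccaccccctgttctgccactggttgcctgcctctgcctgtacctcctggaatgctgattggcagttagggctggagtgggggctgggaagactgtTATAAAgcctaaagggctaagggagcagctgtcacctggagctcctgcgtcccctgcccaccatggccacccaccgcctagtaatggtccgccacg
Capitals mark ACGTG, the core letters of the site bound by hypoxia-inducible and several other basic helix-loop-helix factors, read here on the opposite strand as CACGT, in Aldoc (31 bases before the start), Pfkm (132) and Pygb (101). In Pgam2 they mark a TATAAA box (46 bases before the start). The Eno3 window held none of the motifs searched.

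Promoter windows were matched for 33 of the 35 members, and both strands were searched. ACGTG was present in 17 of 33 member windows (51.5%), against 5418 of 27457 windows of the same length (19.7%). The longer CACGTG, which contains ACGTG, was in 5 member windows (15.2%), against 6.65% of all windows. A MEF2-like muscle motif, searched in this form alone (CTA, 4 bases of any kind, TAG), was in 0 of 33, against 3.83% of all. Other forms of that motif may be present in the windows. TATAAA was in 4 (12.1%), against 14.3%. ACGTG was in 7 of the 12 member windows of genes raised by JQ1 at 48 h, in 7 of 15 of those lowered and in 3 of 6 of those without a call. For JQ1 at 6 h it was in 5 of 7 raised, 5 of 13 lowered and 7 of 13 without a call. For PE the counts were 4 of 9, 8 of 12 and 5 of 12 at 6 h, and 6 of 15, 7 of 10 and 4 of 8 at 48 h, in the same order. Differences between these shares were not tested. The motifs, and the windows printed, were chosen after the members' values and the matches were seen, so the motif and the pattern of these genes are no evidence for each other. A match of letters is a description and not a binding site.

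The labelled cell type was checked against marker genes. Of the 12 cardiomyocyte markers 11 were measured, and their mean log2 value lay between 13.62 and 13.86 on every array. They averaged 13.67 to 13.69 with JQ1 and 13.77 to 13.79 with DMSO at 6 h of PE, 13.62 to 13.66 with JQ1 and 13.85 to 13.86 with DMSO at 48 h, and 13.81 to 13.86 in DMSO at 90 min. The 8 fibroblast markers averaged 9.91 to 9.93 with JQ1 and 10.41 to 10.45 with DMSO at 6 h of PE, 9.02 to 9.07 with JQ1 and 10.24 to 10.30 with DMSO at 48 h, and 10.37 to 10.39 in DMSO at 90 min. The 7 smooth muscle and pericyte markers averaged 9.14 to 9.18 with JQ1 and 9.72 to 9.77 with DMSO at 6 h of PE, 8.71 to 8.78 with JQ1 and 9.83 to 9.88 with DMSO at 48 h, and 9.26 to 9.34 in DMSO at 90 min. Leukocyte markers (7 measured, 4 dim) averaged 6.49 to 6.58 with JQ1 and 6.87 to 7.01 with DMSO at 6 h of PE, 6.02 to 6.09 with JQ1 and 6.42 to 6.47 with DMSO at 48 h, and 6.71 to 6.83 in DMSO at 90 min. Endothelial markers (6 of 7 measured, 3 dim) averaged 5.46 to 5.57 with JQ1 and 5.63 to 5.72 with DMSO at 6 h of PE. At 48 h they averaged 5.34 to 5.50 with JQ1 and 5.57 to 5.67 with DMSO, and in DMSO at 90 min 5.72 to 5.75. Fibroblast markers were thus lower on average in JQ1 at both times. At 48 h all 8 were called lowered (median log2 change -1.39), as were all 7 smooth muscle and pericyte markers. Of all genes, 29.6% were lowered and 30% raised by JQ1 at 48 h. Of the 11 cardiomyocyte markers JQ1 lowered 5 and raised 4 at 48 h, with changes from -1.55 to 0.28, and lowered 5 and raised 2 at 6 h. Of the 6 endothelial markers it lowered 3 and raised 1 at 48 h, and lowered 2 and raised 1 at 6 h. JQ1 lowered 3 of the 7 leukocyte markers at 6 h (42.9%, where 28.8% of all genes were lowered). At 48 h it lowered 2 (28.6%), a share near the 29.6% of all genes. With PE at 48 h, 21.4% of all genes were raised and 22.6% lowered. PE at that time raised 5 and lowered 1 of the 7 smooth muscle and pericyte markers. It raised 1 and lowered 4 of the 8 fibroblast markers, and lowered 5 of the 7 leukocyte markers (median log2 change -0.32). The part of such cells in the results on members was not tested, and in these bulk samples fewer cells of a type and less RNA per cell cannot be told apart.

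Values are given on the log2 scale for 1 probe set per gene. A change is the log2 value of the group named first minus that of the other, with its standard error from 1 linear model over all arrays. A gene was called raised or lowered at an adjusted p below 0.05 over all 13185 genes. Such calls were common in these data, so counts of members called are given with the share of all genes called. Levels of different probe sets were not set against each other.

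PE raised 10 members and lowered 13 at 6 h against 90 min, or 65.7% of the 35, where 37.2% of all genes were called (18.3% raised and 18.9% lowered). The arrays of the groups did not overlap for 26 of 35 members, against 53.9% of all genes. The rises were led by the lactate carrier Slc16a3, hexokinase Hk2, muscle enolase Eno3, neuronal enolase Eno2 and the insulin-responsive glucose carrier Slc2a4, and the falls by Pdk2, Pygb, Pfkm, Aldoc and Pfkfb2. The median change of the members was 0.013, the same as that of all genes. Of the 23 calls, 14 held under every alternative processing. The count lowered was 8 without replicate 2 of the 6 h DMSO with PE group, the largest effect of any single array on it.

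At 48 h of PE, 16 members were raised and 10 lowered against 90 min (74.3%, where 44.1% of all genes were called, 21.4% raised and 22.6% lowered), and the arrays did not overlap for 28 of 35, against 54% of all genes. Slc16a3, Eno3, the phosphofructokinase gene Pfkp, the phosphoglucomutase gene Pgm1 and Eno2 rose most, and Aldoc, Pygb, Pdk2, Pfkm and Pgam2 fell most. The median change was 0.066 for members and 0.006 for all genes, and 22 of 26 calls held under every alternative. Between 6 h and 48 h of PE, 16 members were higher and 6 lower at 48 h (62.9%, where 34.6% of all genes were called, 16.3% higher and 18.4% lower), and the arrays did not overlap for 29 of 35, against 53.8% of all genes. This gave a median of 0.111 for members and -0.011 for all genes, and 13 of 22 calls held throughout. Eno3 (0.81 ± 0.053, adjusted p = 2.06e-07), Pfkp (0.56 ± 0.044, adjusted p = 1.08e-06), Slc16a3 (0.52 ± 0.066, adjusted p = 6.06e-05), Pdk2 (0.46 ± 0.049, adjusted p = 1.39e-05) and Pgm1 (0.45 ± 0.038, adjusted p = 2.43e-06) rose most between the times. Aldoc (-2.06 ± 0.057, adjusted p = 7.18e-10) and Hk2 (-1.01 ± 0.12, adjusted p = 3.37e-05) fell at least 2-fold, and Pygl (-0.37 ± 0.078, adjusted p = 0.0028) and Pgam2 (-0.36 ± 0.077, adjusted p = 0.00307) fell less. The call for Slc2a4 (-0.17 ± 0.061, adjusted p = 0.0441) ended without replicates 1 or 2 of the 6 h DMSO with PE group or replicates 1, 2 or 3 of the 48 h DMSO with PE group (-0.22 to -0.13, adjusted p = 0.0541 to 0.252). The 6 h and 48 h comparisons share the 90 min arrays, so members called in both are not counted here.

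JQ1 raised 7 members and lowered 14 at 6 h of PE (60%, where 54.3% of all genes were called, 25.5% raised and 28.8% lowered), a share near that of all genes. The arrays did not overlap for 30 of 35 members, against 66% of all genes. With each array centred on its own median the split was 11 raised and 11 lowered, and that scaling moved the median change of all genes to 0.099 at 6 h and to 0.129 at 48 h. At 48 h of PE, JQ1 raised 12 and lowered 16 (80%, where 59.6% of all genes were called, 30% raised and 29.6% lowered), and the arrays did not overlap for 29 of 35, against 64.8% of all genes. The median change of members was -0.078 at 6 h and -0.061 at 48 h, against 0 and 0.017 for all genes. Under every alternative 16 of 21 calls held at 6 h and 25 of 28 at 48 h. The JQ1 comparisons use the same DMSO with PE arrays as the PE comparisons, so values of both are given side by side and are not correlated here.

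The genes lowered by JQ1 at both times numbered 12 (34.3% of the members, against 19.9% of all genes) and spanned uptake (Slc2a4), trapping (Hk1), phosphofructokinase (Pfkp), lower glycolysis (Pgam1, Pgam2, Eno1, Eno3), pyruvate dehydrogenase control (Pdk2) and glycogen (Ugp2, Gys1, Pygm, Pygl). The 6 h calls of Pgam1 and Eno1 did not hold under every alternative. The 5 raised at both times were Gpi, Pfkl, Gapdh, Eno2 and Pdk1 (14.3%, against 17.5% of all genes), and the 48 h call of Pdk1 did not hold under every alternative. Another 8 were called at 48 h and not at 6 h (22.9%, against 17.3% of all genes), and Pfkfb1 was called at 6 h and not at 48 h (2.86%, against 12%). The JQ1 change, taken with its sign, differed between the times for 18 members by the test of that difference (51.4%, where 38.8% of all genes were called, 20.4% raised and 18.3% lowered), 9 in each direction.

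**Figure D1:**
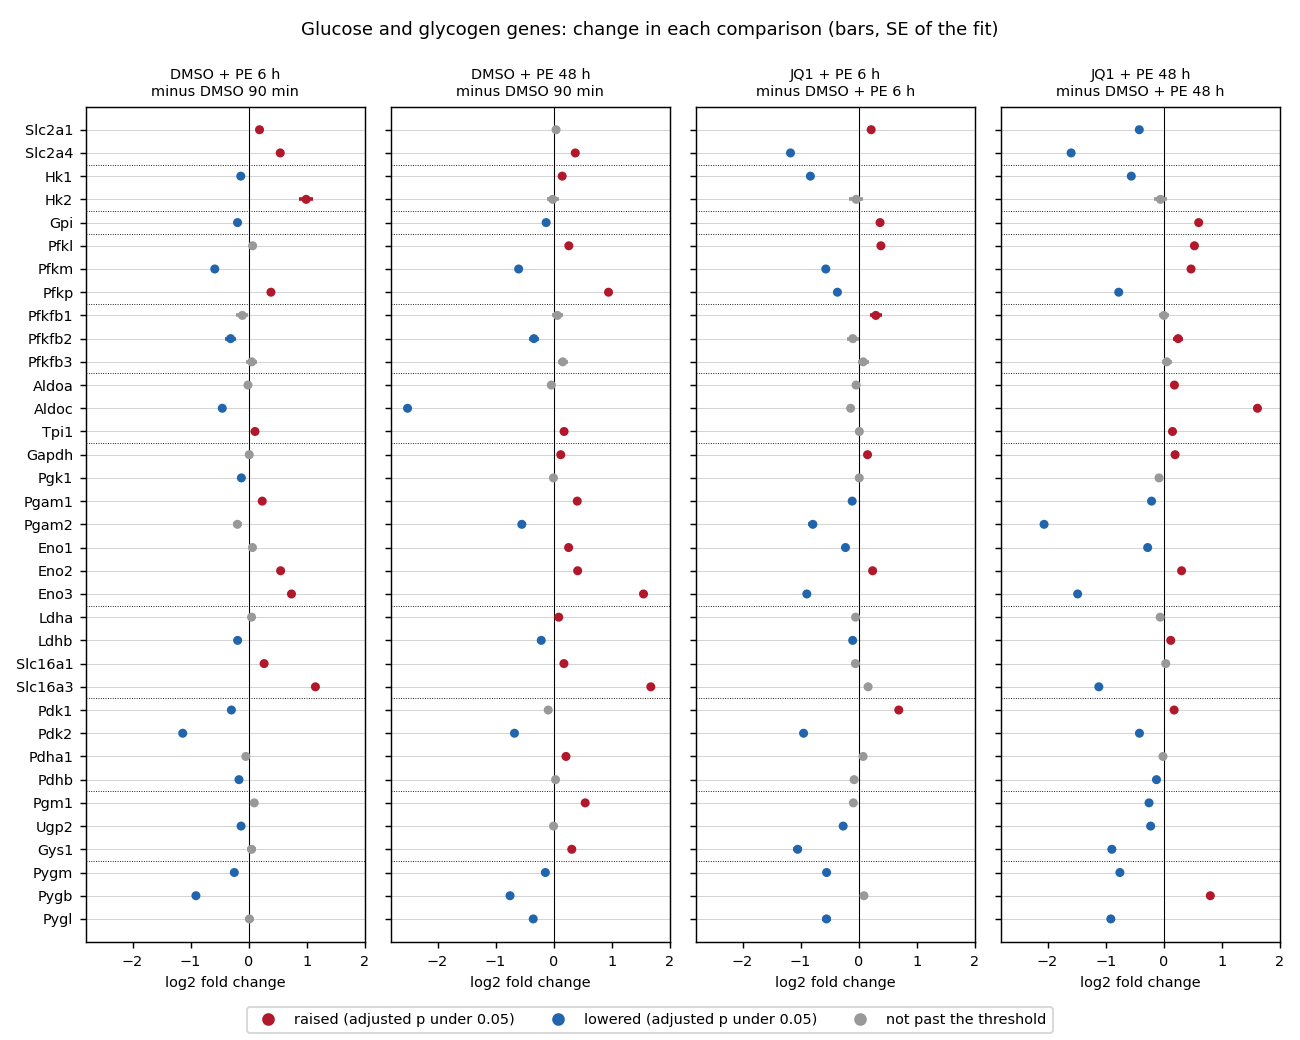
Log2 fold change of the 35 genes (rows, ordered by step of the pathway) in 4 comparisons, PE at 6 h and 48 h against 90 min and JQ1 against DMSO at 6 h and 48 h of PE. Points are estimates from the fit with bars of 1 SE, red for raised, blue for lowered and grey for no call. Aldoc lies at -2.52 with PE and at 1.62 with JQ1 at 48 h, and Eno3 at 1.55 and -1.48.

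Glucose uptake is described first. Slc2a4, which encodes the insulin-responsive carrier GLUT4 of muscle and fat, had log2 values of 8.11, 8.12 and 8.17 with JQ1 and 9.26 and 9.35 with DMSO at 6 h of PE. Slc2a4 values were 7.50, 7.64 and 7.48 with JQ1 and 9.15, 9.12 and 9.14 with DMSO at 48 h of PE, and 8.65, 8.79 and 8.84 in DMSO at 90 min. Its JQ1 arrays lay below all other arrays at both times. JQ1 lowered it 2.26-fold at 6 h (-1.17 ± 0.061, adjusted p = 7.55e-09) and 3.02-fold at 48 h (-1.60 ± 0.054, adjusted p = 7.59e-11). PE without JQ1 raised it at 6 h (0.55 ± 0.061, adjusted p = 1.84e-05) and at 48 h (0.37 ± 0.054, adjusted p = 0.000119). A second, dimmer probe set for Slc2a4 fell with JQ1 by 1.46 and 1.48 on the log2 scale, and its PE change was 0.36 at 6 h, past the threshold, and 0.07 at 48 h, not past it. That second set also gave a difference of JQ1 effects of -0.03, not past the threshold, against -0.42 ± 0.082 (adjusted p = 0.00124) for the brighter one.

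Slc2a1, which encodes the widely expressed carrier GLUT1, had values of 9.89, 9.83 and 9.85 with JQ1 and 9.54 and 9.74 with DMSO at 6 h of PE. Slc2a1 values were 9.09, 9.12 and 9.01 with JQ1 and 9.53, 9.45 and 9.50 with DMSO at 48 h of PE, and 9.43, 9.47 and 9.46 in DMSO at 90 min. It was lower in JQ1 than in DMSO at 48 h, with no overlap (-0.42 ± 0.051, adjusted p = 9.67e-06). At 6 h it was higher in JQ1 (0.22 ± 0.057, adjusted p = 0.00595), a call that ended without replicate 1 of the 6 h DMSO with PE group (0.11, adjusted p = 0.111). The JQ1 change differed between the times (-0.64 ± 0.076, adjusted p = 2.9e-05). With PE in DMSO its change was 0.19 ± 0.057 (adjusted p = 0.0197) at 6 h, a call that ended without replicate 2 of the 6 h DMSO with PE group or replicate 1 of DMSO at 90 min (0.09 to 0.18, adjusted p = 0.0536 to 0.257), and 0.04 ± 0.051 (adjusted p = 0.542) at 48 h.

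Hexokinase is encoded by 2 of the members. Hk1, the isoform bound to mitochondria in most tissues, had values of 9.29, 9.15 and 9.26 with JQ1 and 10.06 and 10.06 with DMSO at 6 h of PE. Hk1 values were 9.77, 9.81 and 9.78 with JQ1 and 10.37, 10.31 and 10.36 with DMSO at 48 h of PE, and 10.18, 10.18 and 10.24 in DMSO at 90 min. It was lower in JQ1 at 6 h (-0.83 ± 0.045, adjusted p = 1.12e-08) and at 48 h (-0.56 ± 0.04, adjusted p = 7.65e-08), with all JQ1 arrays below all others. PE raised Hk1 at 48 h against 90 min by a small margin (0.15 ± 0.04, adjusted p = 0.00969). At 6 h of PE its change was -0.13 ± 0.045 (adjusted p = 0.034), a call that ended without replicates 1 or 2 of the 6 h DMSO with PE group or replicates 1 or 3 of DMSO at 90 min (-0.14 to -0.12, adjusted p = 0.052 to 0.117).

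Hk2, the insulin-responsive muscle isoform, had values of 6.60, 6.93 and 6.60 with JQ1 and 6.64 and 6.87 with DMSO at 6 h of PE. Hk2 values were 5.80, 5.65 and 5.62 with JQ1 and 5.59, 5.76 and 5.89 with DMSO at 48 h of PE, and 5.82, 5.63 and 5.83 in DMSO at 90 min. It was 1.99-fold higher at 6 h of PE in DMSO than at 90 min (0.99 ± 0.12, adjusted p = 3.12e-05) and 2.01-fold lower at 48 h than at 6 h (-1.01 ± 0.12, adjusted p = 3.37e-05). The arrays at 6 h, with and without JQ1, were separate from those at 90 min and 48 h. Its level at 90 min and 48 h was below the dim limit, a log2 value of 6.23 that is the 30th percentile of genes. JQ1 changed it by -0.04 ± 0.12 (adjusted p = 0.797) at 6 h and by -0.06 ± 0.11 (adjusted p = 0.685) at 48 h, neither past the threshold.

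Gpi, the isomerase that turns glucose 6-phosphate into fructose 6-phosphate, had values of 12.08, 12.01 and 12.09 with JQ1 and 11.73 and 11.66 with DMSO at 6 h of PE. Gpi values were 12.33, 12.38 and 12.37 with JQ1 and 11.73, 11.74 and 11.80 with DMSO at 48 h of PE, and 11.89, 11.84 and 11.92 in DMSO at 90 min. All JQ1 arrays were above all DMSO arrays, and JQ1 raised it at 6 h (0.37 ± 0.044, adjusted p = 1.23e-05) and at 48 h (0.60 ± 0.039, adjusted p = 2.97e-08). With PE in DMSO its change was -0.19 ± 0.044 (adjusted p = 0.00443) at 6 h and -0.13 ± 0.039 (adjusted p = 0.0181) at 48 h. The 6 h call ended without replicate 2 of the 6 h DMSO with PE group (-0.15, adjusted p = 0.0502), and the 48 h call ended without replicates 1 or 2 of the 48 h DMSO with PE group or replicate 3 of DMSO at 90 min (-0.12 to -0.11, adjusted p = 0.0582 to 0.0691).

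The subunits of phosphofructokinase are encoded by 3 members. Pfkm, the muscle subunit, had values of 9.76, 9.70 and 9.72 with JQ1 and 10.29 and 10.30 with DMSO at 6 h of PE. Pfkm values were 10.69, 10.80 and 10.75 with JQ1 and 10.23, 10.24 and 10.35 with DMSO at 48 h of PE, and 10.86, 10.85 and 10.92 in DMSO at 90 min. PE lowered it at 6 h (-0.58 ± 0.048, adjusted p = 1.42e-06) and at 48 h (-0.60 ± 0.043, adjusted p = 2.39e-07), and all PE arrays lay below all 90 min arrays. JQ1 lowered it at 6 h (-0.57 ± 0.048, adjusted p = 6.3e-07) and raised it at 48 h (0.47 ± 0.043, adjusted p = 7.74e-07), so the JQ1 change differed between the times by 1.04 ± 0.065 (adjusted p = 1.22e-07). A second probe set for Pfkm gave -0.32 at 6 h and 0.60 at 48 h of JQ1, both past the threshold. The other set, with a mean below the dim limit, gave -0.14 and 0.13 and passed in none of the comparisons.

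Pfkp, the subunit first known from platelets, had values of 11.93, 11.89 and 11.87 with JQ1 and 12.29 and 12.23 with DMSO at 6 h of PE. Pfkp values were 12.03, 12.08 and 12.03 with JQ1 and 12.89, 12.80 and 12.78 with DMSO at 48 h of PE, and 11.92, 11.87 and 11.84 in DMSO at 90 min. PE raised it at 6 h (0.39 ± 0.044, adjusted p = 2.13e-05) and 1.93-fold at 48 h (0.95 ± 0.039, adjusted p = 2.3e-09). JQ1 lowered it at 6 h (-0.37 ± 0.044, adjusted p = 1.28e-05) and at 48 h (-0.78 ± 0.039, adjusted p = 2.8e-09). All JQ1 arrays were below the DMSO with PE arrays of the same time.

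Pfkl, the liver subunit, had values of 7.02, 7.09 and 7.05 with JQ1 and 6.64 and 6.70 with DMSO at 6 h of PE. Pfkl values were 7.29, 7.50 and 7.38 with JQ1 and 6.88, 6.89 and 6.81 with DMSO at 48 h of PE, and 6.69, 6.50 and 6.61 in DMSO at 90 min. JQ1 raised it at 6 h (0.38 ± 0.064, adjusted p = 0.000231) and at 48 h (0.53 ± 0.058, adjusted p = 3.73e-06), with no overlap between JQ1 and DMSO arrays. PE raised it at 48 h (0.26 ± 0.058, adjusted p = 0.00252), and at 6 h the change was 0.07 ± 0.064 (adjusted p = 0.452).

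The Pfkfb genes encode enzymes that make and break down a fructose bisphosphate which activates phosphofructokinase. Pfkfb2, the isoform known from heart, had values of 6.12, 6.10 and 6.09 with JQ1 and 6.13 and 6.29 with DMSO at 6 h of PE. Pfkfb2 values were 6.49, 6.50 and 6.27 with JQ1 and 6.16, 6.28 and 6.08 with DMSO at 48 h of PE, and 6.39, 6.72 and 6.44 in DMSO at 90 min. It was lower with PE in DMSO at 48 h than at 90 min (-0.34 ± 0.089, adjusted p = 0.0078), where it lay below the dim limit. Its call at 6 h of PE (-0.31 ± 0.10, adjusted p = 0.0274) ended without replicate 1 of the 6 h DMSO with PE group or replicate 2 of DMSO at 90 min (-0.23 to -0.21, adjusted p = 0.0907 to 0.21), and its call with JQ1 at 48 h (0.25 ± 0.089, adjusted p = 0.029) ended without replicates 1 or 2 of JQ1 at 48 h or replicates 1 or 3 of the 48 h DMSO with PE group (0.20 to 0.24, adjusted p = 0.0708 to 0.108). The 3 other probe sets for Pfkfb2, each dimmer, passed in none of the comparisons.

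Pfkfb3, the inducible isoform, was the only member called in none of the 5 comparisons of a pair of groups (2.86%, against 21.9% of all genes), with changes of 0.06 and 0.16 with PE and 0.08 and 0.05 with JQ1 at 6 h and 48 h. Its values were 6.65, 6.58 and 6.82 with JQ1 and 6.62 and 6.59 with DMSO at 6 h of PE. Pfkfb3 values were 6.88, 6.71 and 6.69 with JQ1 and 6.60, 6.67 and 6.85 with DMSO at 48 h of PE, and 6.58, 6.41 and 6.66 in DMSO at 90 min. Pfkfb1, the liver and muscle isoform, was dim on average, and its call with JQ1 at 6 h (0.30 ± 0.10, adjusted p = 0.026) was between groups that were both below the dim limit and ended without replicate 3 of JQ1 at 6 h or replicates 1 or 2 of the 6 h DMSO with PE group (0.26 to 0.32, adjusted p = 0.0697 to 0.114).

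Aldolase splits the hexose bisphosphate into trioses. Aldoc, the isoform known from brain, had values of 11.26, 11.35 and 11.27 with JQ1 and 11.46 and 11.41 with DMSO at 6 h of PE. Aldoc values were 10.92, 10.97 and 11.06 with JQ1 and 9.38, 9.36 and 9.38 with DMSO at 48 h of PE, and 11.78, 11.93 and 11.95 in DMSO at 90 min. The 48 h arrays with DMSO and PE lay far below every other array. PE lowered Aldoc 1.37-fold at 6 h (-0.45 ± 0.057, adjusted p = 4.78e-05) and 5.73-fold at 48 h (-2.52 ± 0.051, adjusted p = 1.74e-11). JQ1 raised it 3.06-fold at 48 h (1.62 ± 0.051, adjusted p = 3.87e-11), to a level still below all 90 min arrays, while the change at 6 h was -0.14 ± 0.057 (adjusted p = 0.0566). The JQ1 change differed between the times by 1.75 ± 0.076 (adjusted p = 6.61e-09).

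Aldoa, the muscle isoform, had values of 13.58, 13.62 and 13.59 with JQ1 and 13.64 and 13.64 with DMSO at 6 h of PE. Aldoa values were 13.79, 13.81 and 13.79 with JQ1 and 13.64, 13.57 and 13.62 with DMSO at 48 h of PE, and 13.64, 13.62 and 13.69 in DMSO at 90 min. JQ1 raised it slightly at 48 h (0.18 ± 0.033, adjusted p = 0.000281), and its changes with PE were -0.01 at 6 h and -0.04 at 48 h, not past the threshold. Tpi1, which interconverts the trioses, was raised at 48 h by PE (0.18 ± 0.031, adjusted p = 0.000417) and by JQ1 (0.15 ± 0.031, adjusted p = 0.000873). Its PE change at 6 h was 0.11 ± 0.035 (adjusted p = 0.0229), a call that ended without replicate 1 of the 6 h DMSO with PE group or replicate 2 of DMSO at 90 min (0.08 to 0.11, adjusted p = 0.0542 to 0.186).

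Gapdh and Pgk1 carry out the steps that yield NADH and the first ATP. Gapdh, measured here through an array control probe set, as no other probe set used here names it, rose with JQ1 at 6 h (0.15 ± 0.034, adjusted p = 0.00182) and at 48 h (0.20 ± 0.03, adjusted p = 8.77e-05) and with PE at 48 h (0.12 ± 0.03, adjusted p = 0.0051). Another control set for Gapdh did not pass with JQ1 at 6 h (0.11). Pgk1 changed by 0.01 ± 0.038 (adjusted p = 0.843) at 6 h and by -0.08 ± 0.034 (adjusted p = 0.0567) at 48 h of JQ1, not past the threshold, and its PE change at 48 h was 0.00 ± 0.034 (adjusted p = 0.954). A second bright probe set for Pgk1 passed with JQ1 at 48 h (-0.09, adjusted p = 0.0366 by limma over all probe sets) and for the difference of JQ1 effects (-0.14, adjusted p = 0.046), and the other, dim set passed in none of the comparisons. The PE change at 6 h was -0.12 ± 0.038 (adjusted p = 0.0221), a call that ended without replicates 1 or 2 of the 6 h DMSO with PE group or replicate 1 of DMSO at 90 min (-0.13 to -0.10, adjusted p = 0.0669 to 0.095).

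Phosphoglycerate mutase has a widely expressed form, Pgam1, and a muscle form, Pgam2. Pgam2 had values of 9.55, 9.51 and 9.56 with JQ1 and 10.31 and 10.34 with DMSO at 6 h of PE. Pgam2 values were 7.74, 7.97 and 8.02 with JQ1 and 9.96, 9.97 and 9.98 with DMSO at 48 h of PE, and 10.43, 10.48 and 10.64 in DMSO at 90 min. JQ1 lowered it 1.73-fold at 6 h (-0.79 ± 0.077, adjusted p = 2e-06) and 4.17-fold at 48 h (-2.06 ± 0.069, adjusted p = 6.11e-11), the largest JQ1 change of any member, and the JQ1 arrays were below all DMSO arrays. PE lowered it at 48 h (-0.55 ± 0.069, adjusted p = 3.25e-05), and at 6 h the change was -0.19 ± 0.077 (adjusted p = 0.0695).

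Pgam1 had values of 12.98, 12.97 and 12.96 with JQ1 and 13.10 and 13.06 with DMSO at 6 h of PE. Pgam1 values were 13.03, 13.05 and 13.05 with JQ1 and 13.24, 13.27 and 13.25 with DMSO at 48 h of PE, and 12.84, 12.84 and 12.86 in DMSO at 90 min. PE raised it at 6 h (0.24 ± 0.032, adjusted p = 9.09e-05) and at 48 h (0.41 ± 0.029, adjusted p = 1.99e-07). JQ1 lowered it at 48 h (-0.21 ± 0.029, adjusted p = 3.04e-05), and at 6 h its change was -0.11 ± 0.032 (adjusted p = 0.00991). That 6 h call was lost under 3 alternatives, among them the fit without replicate 1 of the 6 h DMSO with PE group (-0.09, adjusted p = 0.0738).

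Enolase has 3 genes. Eno3, the muscle form, had values of 9.50, 9.46 and 9.41 with JQ1 and 10.28 and 10.42 with DMSO at 6 h of PE. Eno3 values were 9.70, 9.72 and 9.61 with JQ1 and 11.20, 11.09 and 11.18 with DMSO at 48 h of PE, and 9.62, 9.60 and 9.60 in DMSO at 90 min. PE raised it 1.67-fold at 6 h (0.74 ± 0.053, adjusted p = 3.51e-07) and 2.93-fold at 48 h (1.55 ± 0.047, adjusted p = 2.47e-10). JQ1 lowered it 1.86-fold at 6 h (-0.89 ± 0.053, adjusted p = 2.39e-08) and 2.80-fold at 48 h (-1.48 ± 0.047, adjusted p = 4.18e-11), and no JQ1 array reached the DMSO with PE arrays of its time. The JQ1 arrays at 48 h overlapped those at 90 min, and the JQ1 arrays at 6 h lay just below them.

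Eno2, the neuronal form, had values of 9.63, 9.66 and 9.68 with JQ1 and 9.42 and 9.41 with DMSO at 6 h of PE. Eno2 values were 9.64, 9.59 and 9.53 with JQ1 and 9.33, 9.27 and 9.24 with DMSO at 48 h of PE, and 8.80, 8.89 and 8.91 in DMSO at 90 min. It rose with PE at 6 h (0.55 ± 0.047, adjusted p = 1.69e-06) and at 48 h (0.41 ± 0.042, adjusted p = 5.13e-06), and it was higher again in JQ1 at 6 h (0.24 ± 0.047, adjusted p = 0.000725) and at 48 h (0.31 ± 0.042, adjusted p = 2.95e-05). Eno1, the widely expressed form, had values of 12.71, 12.64 and 12.62 with JQ1 and 12.94 and 12.83 with DMSO at 6 h of PE. Eno1 values were 12.76, 12.82 and 12.82 with JQ1 and 13.09, 13.05 and 13.07 with DMSO at 48 h of PE, and 12.80, 12.79 and 12.86 in DMSO at 90 min. PE raised Eno1 at 48 h (0.26 ± 0.041, adjusted p = 0.00022), and JQ1 lowered it at 48 h (-0.28 ± 0.041, adjusted p = 5.96e-05). Its JQ1 change at 6 h (-0.23 ± 0.046, adjusted p = 0.000894) was also called, but not under every alternative.

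Lactate dehydrogenase interconverts pyruvate and lactate, and both of its members had small changes. Ldhb, the heart form, had values of 13.56, 13.56 and 13.52 with JQ1 and 13.62 and 13.67 with DMSO at 6 h of PE. Ldhb values were 13.73, 13.75 and 13.75 with JQ1 and 13.63, 13.62 and 13.62 with DMSO at 48 h of PE, and 13.86, 13.81 and 13.84 in DMSO at 90 min. PE lowered it at 6 h (-0.19 ± 0.035, adjusted p = 0.000942) and at 48 h (-0.21 ± 0.031, adjusted p = 0.000119), and JQ1 raised it at 48 h (0.12 ± 0.031, adjusted p = 0.00445). With JQ1 at 6 h its change was -0.10 ± 0.035 (adjusted p = 0.0235), a call that ended without replicate 3 of JQ1 at 6 h or replicate 2 of the 6 h DMSO with PE group (-0.09 to -0.08, adjusted p = 0.0753 to 0.169), and with arrays centred on their medians, where the change was -0.004 (adjusted p = 0.932). Ldha, the muscle form, had values of 13.84, 13.85 and 13.79 with JQ1 and 13.90 and 13.86 with DMSO at 6 h of PE. Ldha values were 13.84, 13.87 and 13.86 with JQ1 and 13.93, 13.91 and 13.91 with DMSO at 48 h of PE, and 13.82, 13.83 and 13.83 in DMSO at 90 min. Its changes were -0.05 ± 0.034 (adjusted p = 0.217) at 6 h and -0.06 ± 0.031 (adjusted p = 0.109) at 48 h of JQ1, and its call at 48 h of PE (0.09 ± 0.031, adjusted p = 0.033) ended without replicates 1, 2 or 3 of the 48 h DMSO with PE group or replicates 1, 2 or 3 of DMSO at 90 min (0.08 to 0.09, adjusted p = 0.0607 to 0.0861).

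Lactate carriers are encoded by 2 members. Slc16a3, which encodes MCT4, a carrier typical of lactate-exporting cells, had values of 10.08, 10.27 and 10.12 with JQ1 and 10.03 and 9.95 with DMSO at 6 h of PE. Slc16a3 values were 9.46, 9.39 and 9.34 with JQ1 and 10.59, 10.51 and 10.45 with DMSO at 48 h of PE, and 8.77, 8.85 and 8.90 in DMSO at 90 min. PE raised it 2.22-fold at 6 h (1.15 ± 0.066, adjusted p = 5.75e-08) and 3.19-fold at 48 h (1.68 ± 0.059, adjusted p = 6.19e-10), and every PE array was above every 90 min array. JQ1 lowered it 2.17-fold at 48 h (-1.12 ± 0.059, adjusted p = 4.15e-09), with no overlap, while at 6 h the change was 0.16 ± 0.066 (adjusted p = 0.0543). The JQ1 change differed between the times by -1.28 ± 0.088 (adjusted p = 2.86e-07). Slc16a1, which encodes the widely expressed MCT1, had values of 12.60, 12.64 and 12.62 with JQ1 and 12.65 and 12.71 with DMSO at 6 h of PE. Slc16a1 values were 12.58, 12.61 and 12.68 with JQ1 and 12.56, 12.63 and 12.57 with DMSO at 48 h of PE, and 12.45, 12.42 and 12.37 in DMSO at 90 min. Its change was 0.27 ± 0.044 (adjusted p = 0.000373) at 6 h and 0.18 ± 0.039 (adjusted p = 0.00254) at 48 h of PE, both called but not under every alternative. A dim second probe set for Slc16a1 passed at neither time of PE (0.02 and -0.01). With JQ1 its change was -0.06 ± 0.044 (adjusted p = 0.312) and 0.04 ± 0.039 (adjusted p = 0.471) at 6 h and 48 h, not past the threshold.

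The Pdk kinases phosphorylate pyruvate dehydrogenase and so close the way of pyruvate into mitochondria. Pdk2 had values of 8.21, 8.23 and 8.20 with JQ1 and 9.13 and 9.19 with DMSO at 6 h of PE. Pdk2 values were 9.11, 9.25 and 9.25 with JQ1 and 9.60, 9.59 and 9.66 with DMSO at 48 h of PE, and 10.25, 10.30 and 10.33 in DMSO at 90 min. PE lowered it 2.19-fold at 6 h (-1.13 ± 0.049, adjusted p = 5.7e-09) and 1.60-fold at 48 h (-0.67 ± 0.043, adjusted p = 9.07e-08), and JQ1 lowered it 1.93-fold at 6 h (-0.95 ± 0.049, adjusted p = 6.68e-09) and 1.34-fold at 48 h (-0.42 ± 0.043, adjusted p = 2.41e-06). The JQ1 arrays at 6 h were the lowest of all. A dim second probe set for Pdk2 passed in none of the comparisons.

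Pdk1 had values of 9.37, 9.22 and 9.25 with JQ1 and 8.47 and 8.70 with DMSO at 6 h of PE. Pdk1 values were 8.97, 8.99 and 8.94 with JQ1 and 8.81, 8.75 and 8.81 with DMSO at 48 h of PE, and 8.86, 8.89 and 8.91 in DMSO at 90 min. JQ1 raised it 1.61-fold at 6 h (0.69 ± 0.063, adjusted p = 1.17e-06), and PE lowered it at 6 h (-0.30 ± 0.063, adjusted p = 0.00257). At 48 h the JQ1 change was 0.18 ± 0.056 (adjusted p = 0.015), a call that ended without replicate 2 of the 48 h DMSO with PE group (0.16, adjusted p = 0.0549), and the PE change was -0.09 ± 0.056 (adjusted p = 0.213). The JQ1 change differed between the times by -0.51 ± 0.085 (adjusted p = 0.000391). Of the subunits of the first enzyme of the complex, Pdha1 rose with PE at 48 h (0.21 ± 0.034, adjusted p = 0.000241) and Pdhb fell with PE at 6 h (-0.17 ± 0.034, adjusted p = 0.00206). With JQ1 Pdha1 changed by 0.08 ± 0.038 (adjusted p = 0.11) and -0.01 ± 0.034 (adjusted p = 0.777) at 6 h and 48 h, and Pdhb by -0.08 ± 0.034 (adjusted p = 0.0703) and -0.12 ± 0.03 (adjusted p = 0.00317), the last called but not under every alternative. A second probe set for Pdha1 passed with JQ1 at 6 h (0.23, adjusted p = 0.044 by limma over all probe sets).

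Glycogen is built from glucose 6-phosphate through Pgm1, which moves the phosphate, Ugp2, which makes UDP-glucose, and glycogen synthase. Gys1, the muscle form of the synthase, had values of 8.36, 8.66 and 8.47 with JQ1 and 9.51 and 9.59 with DMSO at 6 h of PE. Gys1 values were 8.91, 8.85 and 8.98 with JQ1 and 9.82, 9.78 and 9.83 with DMSO at 48 h of PE, and 9.41, 9.50 and 9.58 in DMSO at 90 min. JQ1 lowered it 2.07-fold at 6 h (-1.05 ± 0.076, adjusted p = 1.49e-07) and 1.86-fold at 48 h (-0.89 ± 0.068, adjusted p = 1.33e-07), and all JQ1 arrays lay below all DMSO arrays. PE raised it at 48 h (0.31 ± 0.068, adjusted p = 0.00245), and at 6 h the change was 0.05 ± 0.076 (adjusted p = 0.659).

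Pgm1 had values of 11.44, 11.51 and 11.48 with JQ1 and 11.59 and 11.55 with DMSO at 6 h of PE. Pgm1 values were 11.73, 11.77 and 11.79 with JQ1 and 12.03, 12.03 and 12.00 with DMSO at 48 h of PE, and 11.45, 11.45 and 11.51 in DMSO at 90 min. PE raised it 1.46-fold at 48 h (0.54 ± 0.034, adjusted p = 7.44e-08), and JQ1 lowered it at 48 h (-0.25 ± 0.034, adjusted p = 2.77e-05), with the JQ1 arrays between those of DMSO at 90 min and of DMSO with PE. Ugp2 fell with JQ1 at 6 h (-0.27 ± 0.036, adjusted p = 4.04e-05) and at 48 h (-0.23 ± 0.033, adjusted p = 5.03e-05). Its PE change at 6 h was -0.13 ± 0.036 (adjusted p = 0.0141), a call that ended without replicate 2 of the 6 h DMSO with PE group (-0.10, adjusted p = 0.108), and at 48 h it was 0.00 ± 0.033 (adjusted p = 0.99).

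Glycogen phosphorylase releases glucose 1-phosphate from glycogen, and 3 members encode its forms. Pygb, the brain form, had values of 10.82, 10.91 and 10.79 with JQ1 and 10.65 and 10.84 with DMSO at 6 h of PE. Pygb values were 11.69, 11.73 and 11.70 with JQ1 and 10.92, 10.90 and 10.89 with DMSO at 48 h of PE, and 11.66, 11.59 and 11.72 in DMSO at 90 min. PE lowered it 1.88-fold at 6 h (-0.91 ± 0.059, adjusted p = 1.61e-07) and 1.68-fold at 48 h (-0.75 ± 0.053, adjusted p = 1.97e-07). JQ1 raised it 1.75-fold at 48 h (0.80 ± 0.053, adjusted p = 3.2e-08), to values that overlapped those at 90 min, and at 6 h the change was 0.09 ± 0.059 (adjusted p = 0.217).

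Pygm, the muscle form, had values of 9.35, 9.34 and 9.36 with JQ1 and 9.97 and 9.84 with DMSO at 6 h of PE. Pygm values were 9.14, 9.33 and 9.28 with JQ1 and 10.02, 9.98 and 10.01 with DMSO at 48 h of PE, and 10.12, 10.11 and 10.22 in DMSO at 90 min. JQ1 lowered it at 6 h (-0.55 ± 0.058, adjusted p = 4.07e-06) and at 48 h (-0.76 ± 0.052, adjusted p = 4.87e-08), with no overlap. With JQ1 at 6 h a second probe set for Pygm gave 0.00, not past the threshold, and the other set gave -0.58, past it. At 48 h both fell with JQ1, by 0.25 and 0.55. With PE at 48 h both passed (-0.26 and -0.29), and with PE at 6 h the second did not (-0.17) and the other did (-0.22). Of the sets for Pygm, the second alone passed for the difference of JQ1 effects (-0.25). The PE changes were -0.25 ± 0.058 (adjusted p = 0.00508) at 6 h, a call that ended without replicate 2 of the 6 h DMSO with PE group (-0.18, adjusted p = 0.068), and -0.14 ± 0.052 (adjusted p = 0.042) at 48 h, a call that ended without replicates 1, 2 or 3 of the 48 h DMSO with PE group or replicates 1 or 3 of DMSO at 90 min (-0.16 to -0.11, adjusted p = 0.0586 to 0.152).

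Pygl, the liver form, had values of 7.04, 6.94 and 6.89 with JQ1 and 7.42 and 7.60 with DMSO at 6 h of PE. Pygl values were 6.28, 6.17 and 6.24 with JQ1 and 7.26, 7.09 and 7.08 with DMSO at 48 h of PE, and 7.38, 7.57 and 7.54 in DMSO at 90 min. JQ1 lowered it at 6 h (-0.55 ± 0.078, adjusted p = 5.11e-05) and at 48 h (-0.91 ± 0.07, adjusted p = 1.3e-07), where its mean was at the dim limit. PE lowered it at 48 h (-0.35 ± 0.07, adjusted p = 0.00124), and at 6 h the change was 0.02 ± 0.078 (adjusted p = 0.906).

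**Figure D2:**
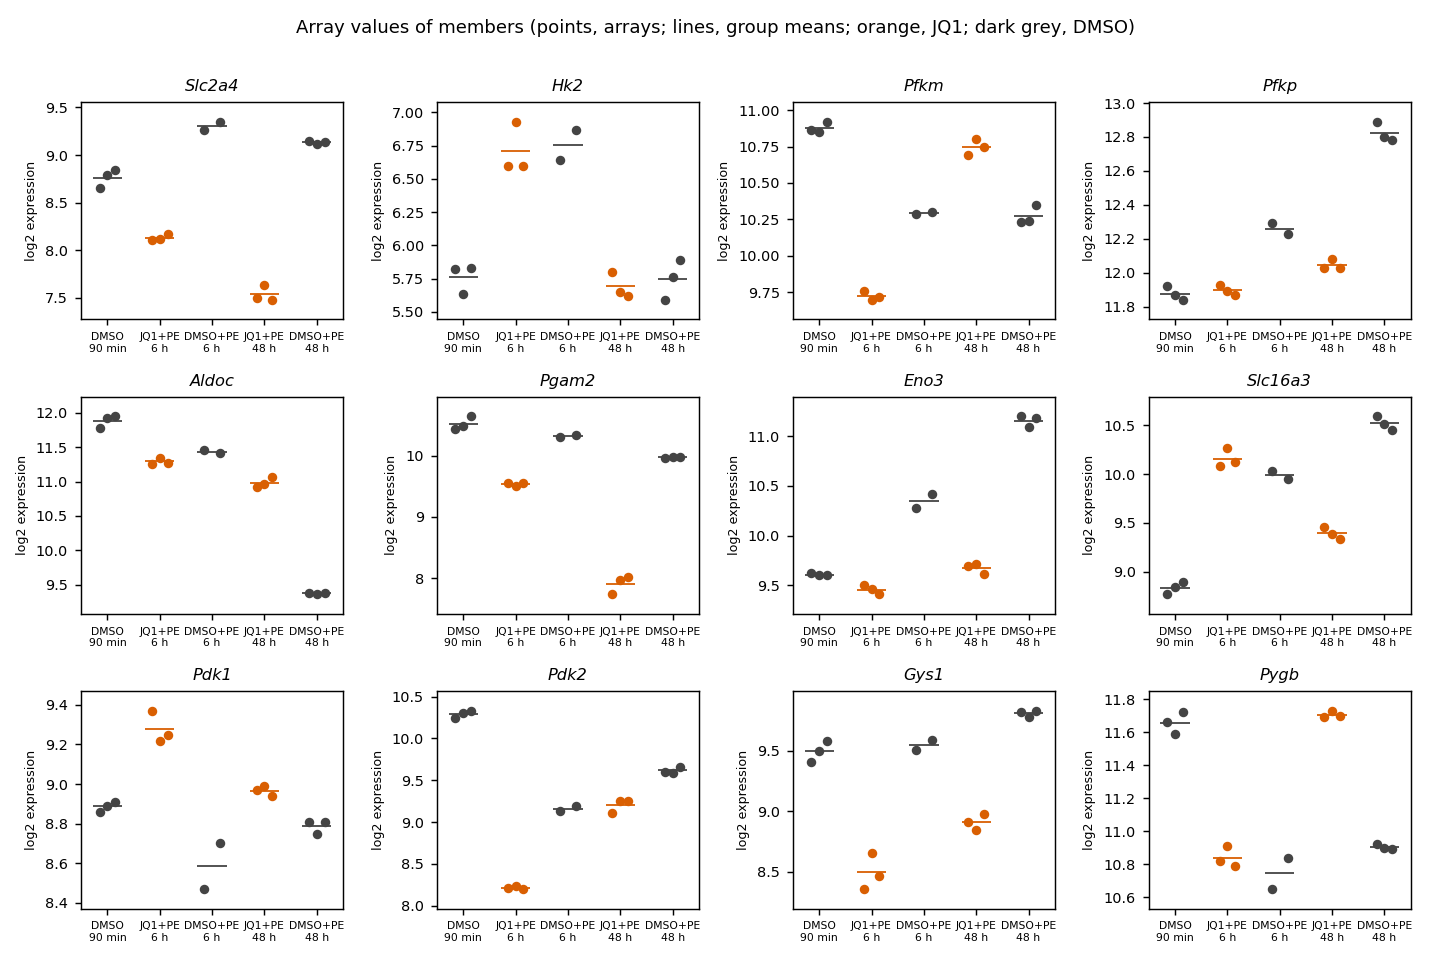
Log2 expression (vertical axis) of 12 of the genes on each of the 14 arrays in the 5 groups, as points with lines at group means, orange for JQ1 and dark grey for DMSO. Eno3 lies at 9.41 to 9.50 with JQ1 and 10.28 to 10.42 with DMSO at 6 h of PE, and Pgam2 at 7.74 to 8.02 with JQ1 and 9.96 to 9.98 with DMSO at 48 h.

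Which members changed their JQ1 response between the times is seen from the 18 differences past the threshold. The JQ1 change was more positive at 48 h for Aldoc, Pfkm, Pygb, Pdk2, Hk1, Aldoa, Gpi, Ldhb and Tpi1, with differences of 0.14 to 1.75. It was more negative at 48 h for Slc16a3, Pgam2, Slc2a1, Eno3, Slc2a4, Pdk1, Pfkp, Pygl and Pgm1, with differences of -1.28 to -0.16. Of these 18 calls, 14 held under every alternative, and those of Tpi1, Pgm1, Pygl and Slc2a4 did not. The second probe sets of Pgm1 (-0.20), Slc2a4 (-0.03) and Pdk2 (-0.04) and the dim set of Pfkm (0.26) did not pass for this difference. The call for Pygl ended without replicate 1 of the 6 h DMSO with PE group (-0.27, adjusted p = 0.0879), that for Pgm1 without replicate 2 of JQ1 at 6 h or replicate 1 of JQ1 at 48 h or replicate 2 of the 6 h DMSO with PE group or replicate 1 of the 48 h DMSO with PE group (-0.16 to -0.14, adjusted p = 0.0502 to 0.0875) and that for Tpi1 without replicate 2 of JQ1 at 6 h or replicates 2 or 3 of JQ1 at 48 h or replicate 1 of the 6 h DMSO with PE group or replicates 2 or 3 of the 48 h DMSO with PE group (0.11 to 0.14, adjusted p = 0.0543 to 0.124). Calls of opposite sign at the 2 times were made for Pfkm, Slc2a1 and Ldhb (8.57% of the members, against 4.84% of all genes).

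**Figure D3:**
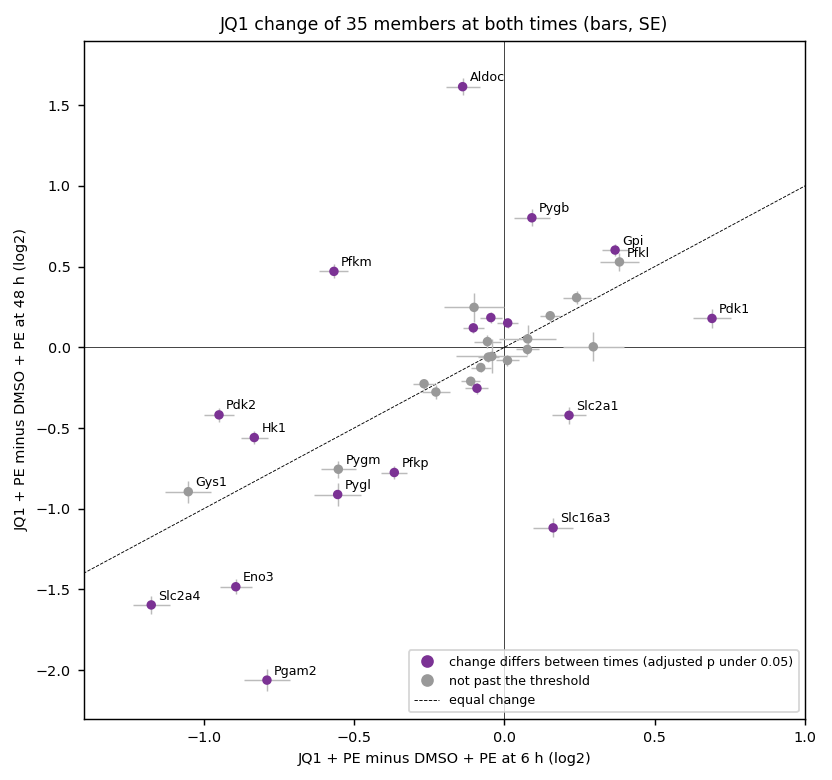
Change of each of the 35 genes with JQ1 at 6 h of PE (horizontal axis, log2) and at 48 h (vertical axis, log2), with bars of 1 SE and a dashed line of equal change. Purple points differ between the times past the threshold, and Aldoc (-0.14 at 6 h and 1.62 at 48 h) and Slc16a3 (0.16 and -1.12) lie far from the line.

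Isoform use was compared by the log2 ratio of 2 genes on the same array, which cancels what an array's scale shares, for 12 pairs. The change of a ratio shows that the 2 genes changed unequally and says nothing about either alone. For PE, the 5 arrays of DMSO with PE were set against the 3 of DMSO at 90 min with an exact two-sided permutation test, whose smallest p is 0.0179. For JQ1, the arrays were permuted within each time, with a smallest p of 0.005, and the statistic averages both times. P-values were adjusted over the 12 pairs, which were chosen with results of these data known.

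Ratios of other gene pairs were not computed, so whether the counts of pairs are particular to these 12 was not tested. Of all single genes, 37.2% were called with PE at 6 h and 44.1% at 48 h. The ratio changed with PE in 11 of 12 pairs. It rose for Eno3 over Eno1 by 1.04 (adjusted p = 0.0238), Pfkp over Pfkm by 1.32, Pfkl over Pfkm by 0.78, Slc16a3 over Slc16a1 by 1.252, Pdk1 over Pdk2 by 0.68, Pfkfb3 over Pfkfb2 by 0.44 and Ldha over Ldhb by 0.28, each with the same exact permutation p. The mean of each gene's probe sets gave 0.33 for Pdk1 over Pdk2, 0.20 for Pfkfb3 over Pfkfb2 and -0.21 for Slc2a1 over Slc2a4, each still past the threshold. The ratio fell for Slc2a1 over Slc2a4 by 0.34 and for Pygb over Pygm by 0.63 (adjusted p = 0.0238 by the exact permutation test) and for Aldoc over Aldoa by 1.66 and Pgam2 over Pgam1 by 0.74 (adjusted p = 0.039 by the same test). Hk1 over Hk2 changed by -1.13 at 6 h and by 0.16 at 48 h, and its mean change of -0.35 did not pass (adjusted p = 0.4643 by the exact permutation test). With any 1 of the 90 min arrays left out, no pair passed, since few arrangements remain. Aldoc over Aldoa and Pgam2 over Pgam1 lost the threshold whichever 1 of the 8 arrays was left out, and Eno3 over Eno1 lost the threshold in 7 of the 8 cases.

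With JQ1 the ratio changed in 6 of 12 pairs, each with the smallest p the exact permutation test allows (adjusted p = 0.01). Here too other gene pairs were not tested, and of all single genes 54.3% were called at 6 h and 59.6% at 48 h. Slc2a1 over Slc2a4 rose by 1.39 at 6 h and 1.18 at 48 h, Pdk1 over Pdk2 by 1.64 and 0.60, and Pygb over Pygm by 0.64 and 1.56. Eno3 over Eno1 fell by 0.67 and 1.21, Pgam2 over Pgam1 by 0.68 and 1.85, and Hk1 over Hk2 by 0.79 and 0.50. In these 6 pairs the sign was the same at both times.

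The other 6 pairs did not pass. Aldoc over Aldoa changed by -0.09 at 6 h and 1.43 at 48 h, Pfkp over Pfkm by 0.20 and -1.25, and Slc16a3 over Slc16a1 by 0.22 and -1.15, so that the average over both times was 0.67, -0.52 and -0.47 (adjusted p = 0.1091 for each by the exact permutation test). Opposite signs cancel in part in that average. Pfkl over Pfkm changed by 0.95 at 6 h and by 0.06 at 48 h (adjusted p = 0.0514 by the exact permutation test) and passed under 2 alternatives. The averages were -0.009 for Pfkfb3 over Pfkfb2 (adjusted p = 0.92 by that exact test) and -0.066 for Ldha over Ldhb (adjusted p = 0.1091 by that exact test).

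**Figure D4:**
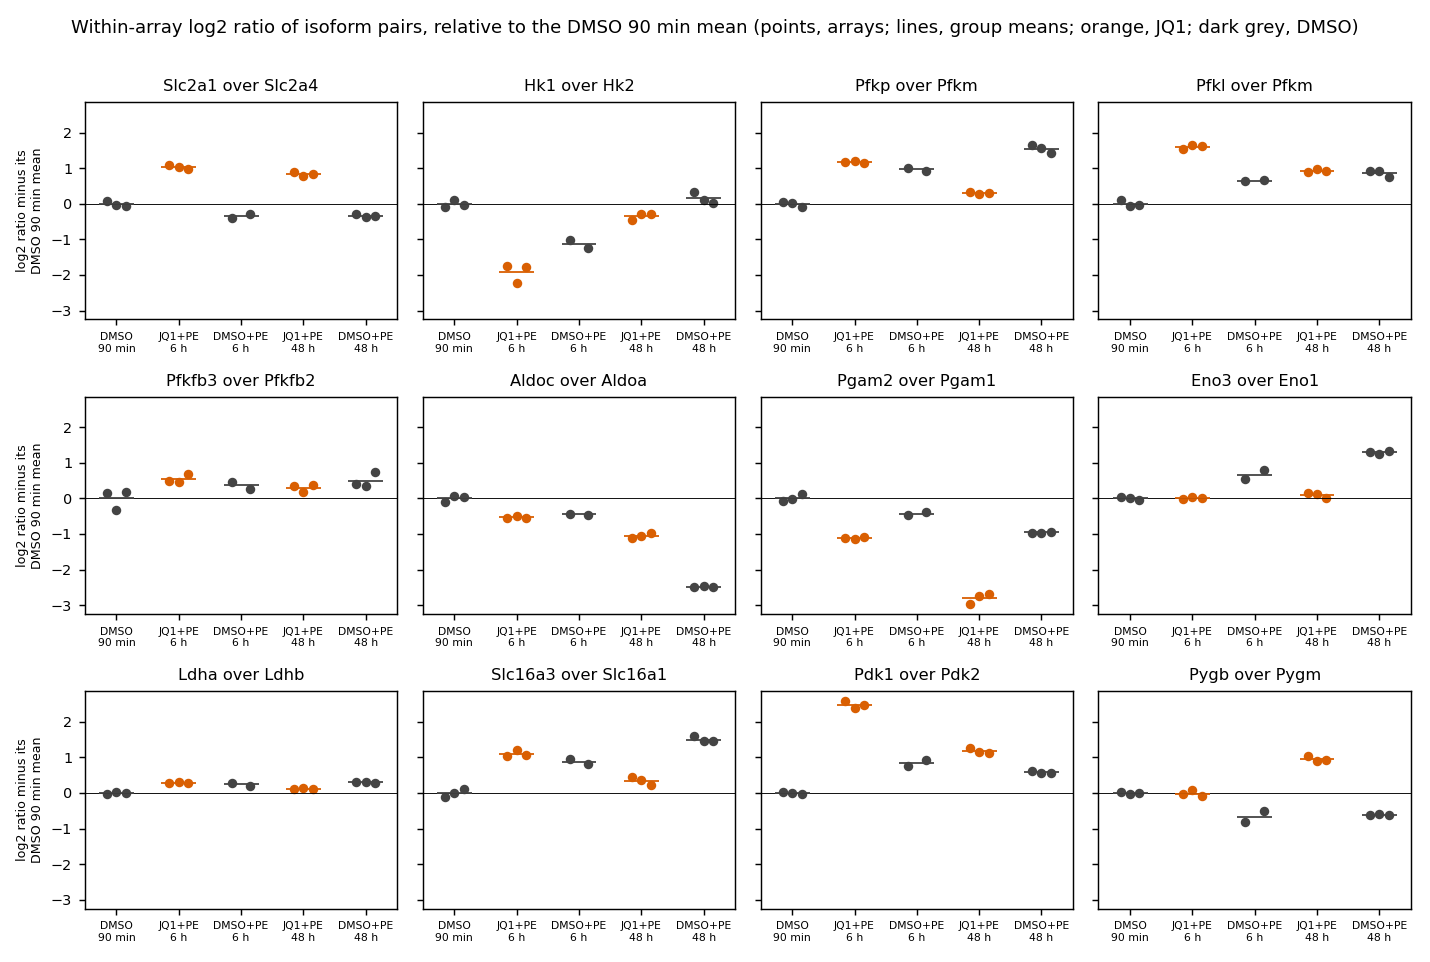
Log2 ratio of the 2 genes of each of 12 isoform pairs on each array, minus the mean ratio of DMSO at 90 min (vertical axis), by group, with orange for JQ1, dark grey for DMSO and lines at group means. The ratio of Eno3 over Eno1 is raised with PE in DMSO and near 0 with JQ1, and Pgam2 over Pgam1 is lowest with JQ1 at 48 h.

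Genes next to the members in the pathway were counted from a list of 42 other glucose, pyruvate and glycogen genes, of which 35 were measured. JQ1 raised 9 and lowered 14 at 6 h (65.7%, where 54.3% of all genes were called), and raised 12 and lowered 13 at 48 h (71.4%, where 59.6% of all genes were called). Txnip, which restrains glucose uptake, rose with JQ1 at 6 h (1.21 ± 0.058, adjusted p = 3.88e-09) and at 48 h (1.45 ± 0.052, adjusted p = 1.18e-10) and fell with PE at 6 h (-0.86 ± 0.058, adjusted p = 2.17e-07) and at 48 h (-0.63 ± 0.052, adjusted p = 8.31e-07). Pgm2l1, which makes glucose bisphosphate, rose with JQ1 at both times (1.15 ± 0.056, adjusted p = 4.79e-09 and 1.21 ± 0.05, adjusted p = 4.63e-10), as did Phka1, a subunit of phosphorylase kinase (0.92 ± 0.065, adjusted p = 1.15e-07 and 0.89 ± 0.058, adjusted p = 2.83e-08). Slc16a7, the carrier MCT2, fell with JQ1 at 6 h (-1.13 ± 0.079, adjusted p = 1.13e-07) and at 48 h (-1.51 ± 0.071, adjusted p = 1.37e-09), to means of 6.06 and 5.70 that lay below the dim limit. The neuronal-type glucose carrier Slc2a3 also fell at both (-0.78 ± 0.068, adjusted p = 6.88e-07 and -1.11 ± 0.06, adjusted p = 5.37e-09), and it rose with PE at 6 h (0.61 ± 0.068, adjusted p = 1.63e-05).

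In the same list PE raised 3 and lowered 13 at 6 h (45.7%, where 37.2% of all genes were called) and raised 10 and lowered 10 at 48 h (57.1%, against 44.1%). Pdk4, a further pyruvate dehydrogenase kinase, changed by -1.06 ± 0.087 (adjusted p = 1.24e-06) at 6 h and 0.08 ± 0.077 (adjusted p = 0.437) at 48 h of PE, and 0.05 ± 0.087 (adjusted p = 0.679) at 6 h and 1.02 ± 0.077 (adjusted p = 1.31e-07) at 48 h of JQ1. Ppp1r3b, which targets a phosphatase to glycogen, fell with PE at 6 h (-0.89 ± 0.077, adjusted p = 2.07e-06) and 48 h (-1.01 ± 0.069, adjusted p = 1.41e-07) and with JQ1 at 6 h (-0.86 ± 0.077, adjusted p = 9.45e-07) and 48 h (-0.57 ± 0.069, adjusted p = 9.79e-06). Pdhx, a structural part of pyruvate dehydrogenase, rose with PE at 48 h (0.38 ± 0.032, adjusted p = 1e-06) and fell with JQ1 at 48 h (-0.61 ± 0.032, adjusted p = 4.32e-09). Mpc1, a subunit of the mitochondrial pyruvate carrier, rose with PE at 48 h (0.33 ± 0.035, adjusted p = 7.5e-06), and Pdp1, a phosphatase that activates pyruvate dehydrogenase, fell (-0.56 ± 0.041, adjusted p = 3.22e-07).

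Side branches were read from smaller lists. Of 6 measured genes of the pentose phosphate pathway, JQ1 raised 2 and lowered 0 at 6 h (33.3%, where 54.3% of all genes were called). At 48 h it raised 2 and lowered 3 (83.3%, against 59.6%), with Taldo1, a transaldolase, at 0.73 ± 0.035 (adjusted p = 1.92e-09). Of 5 of the hexosamine pathway, JQ1 raised 3 and lowered 1 at each time (80%, where 54.3% of all genes were called at 6 h and 59.6% at 48 h). With PE at 6 h, 1 gene was raised and 2 were lowered in each list (50% of the pentose phosphate and 60% of the hexosamine genes, where 37.2% of all genes were called). With PE at 48 h, 1 gene was raised and 3 were lowered in the pentose phosphate list (66.7%, where 44.1% of all genes were called), and 1 was raised and 2 were lowered in the hexosamine list (60%). Gfpt2, which makes glucosamine 6-phosphate, rose with JQ1 at 6 h (1.35 ± 0.081, adjusted p = 2.67e-08) and with PE at 6 h (2.06 ± 0.081, adjusted p = 2.84e-09). Of 16 genes that hypoxia-inducible factor is known to raise outside glucose metabolism, JQ1 raised 5 and lowered 6 at 6 h (68.8%, where 54.3% of all genes were called) and raised 5 and lowered 7 at 48 h (75%, against 59.6%). PE raised 6 and lowered 5 at 6 h (68.8%, against 37.2%) and raised 4 and lowered 7 at 48 h (68.8%, against 44.1%). With JQ1 at 48 h of PE the mitophagy receptor Bnip3l rose (1.01 ± 0.042, adjusted p = 4.18e-10). The collagen prolyl hydroxylase subunit P4ha2 (-0.66 ± 0.04, adjusted p = 1.73e-08) and the transcription factor Bhlhe40 (-0.77 ± 0.056, adjusted p = 9.5e-08) fell in that comparison.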

How the data were processed

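Total RNA of cultured rat ventricular myocytes was measured on 14 Affymetrix arrays, and the authors deposited 1 table of log2 expression values for 20223 probe sets. Per the labels, RNA was labelled with biotin, and per the submitters' processing notes limma was used, with no role stated. The sources used here state neither summarization nor normalization, and that arrays were scaled to each other is inferred from array medians of 7.28 to 7.43. Values ran from 2.71 to 14.7, and every column matched a sample, with 0 left over. The labels' cell type, strain, age, treatment and time gave the 5 groups.

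Probe sets were named through the platform's probe table and the rat RefSeq table (GRCr8). Of the 18513 with 1 symbol, 18464 matched by gene identifier, 1 by accession and 48 kept the platform's symbol, and 305 with several symbols were left out. The brightest probe set stood for each of 13185 genes. Control probe sets were used for Gapdh alone, a choice made after its values could be seen. Other probe sets of members were compared in 59 contrasts where the one used was called, with 28 in the same direction past the threshold, 26 in the same direction without passing, 5 opposite without passing and 0 opposite past it. Where the one used was not called, 4 of 43 contrasts of other sets passed.

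All arrays entered 1 model with a mean per group (lmFit and eBayes of limma 3.58.1, R 4.3.3, 9 residual degrees of freedom), with two-sided p-values adjusted by the Benjamini-Hochberg method and a threshold of 0.05. The number of arrays limits the precision, with a median SE of 0.0604 for 3 against 3 arrays and 0.0675 where DMSO with PE at 6 h (n = 2) entered. Isoform ratios were tested by exact permutation of arrays with Python 3.11.15, and the fit and the permutation test were tested on simulated data. Same-numbered arrays showed no clear pairing: over 26 such pairs, deviations from group means correlated at -0.27 to 0.18, with 3 over 0.1. Means of 2 or 3 arrays leave too little to show by this check that arrays were unpaired.

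The members, the other gene lists, the markers and the tests were chosen with earlier results of these data known. Every measured member is accounted for. Array values are given for members past the threshold among the 5 largest changes in a direction and for those of isoform pairs whose ratio changed, and array values of further members where a paragraph turns on them. Of each other list, up to 3 genes per direction with the smallest adjusted p were eligible to be named. Alternatives were the mean of probe sets, repeated quantile normalization, centred arrays, dim genes left out, an intensity trend, only the groups compared, a replicate block and each array left out.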

Additional observations from a re-analysis of the deposited data

Results flagged for a closer look

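For 18 members the JQ1 effect at 48 h of PE differed from that at 6 h by the test of the difference itself (log2 change at 48 h minus log2 change at 6 h, adjusted p below 0.05 over all genes, where 38.8% of all genes passed). The difference was 1.75 for Aldoc, 1.04 for Pfkm, 0.71 for Pygb, 0.53 for Pdk2, 0.27 for Hk1, 0.23 for Gpi, 0.23 for Aldoa, 0.22 for Ldhb and 0.14 for Tpi1. It was -1.28 for Slc16a3, -1.27 for Pgam2, -0.64 for Slc2a1, -0.59 for Eno3, -0.51 for Pdk1, -0.42 for Slc2a4, -0.41 for Pfkp, -0.36 for Pygl and -0.16 for Pgm1. The signs of the JQ1 effect itself were opposite at the 2 times, with both called, for Pfkm, Slc2a1 and Ldhb. Groups held at most 3 arrays, so no array was tested as standing apart from its group.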

How the results depend on the processing

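No member's call reversed its direction under any alternative, and counts of calls stayed within 1.5 times with 2 exceptions. Members raised by JQ1 at 6 h were 11 with arrays centred on their medians, against 7. Members lowered by PE at 6 h were 8 to 12 with 1 array left out, against 13, with 8 without replicate 2 of the 6 h DMSO with PE group. With the replicate block, members raised and lowered were 10 and 12 for PE at 6 h, 15 and 9 for PE at 48 h, 14 and 5 for 48 h against 6 h of PE, 7 and 14 for JQ1 at 6 h, 12 and 16 for JQ1 at 48 h, and 10 and 8 for the difference of JQ1 effects. Under the block 8 single calls were lost and 2 gained, among them Aldoc with JQ1 at 6 h (-0.15, adjusted p = 0.0394).

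Among isoform ratios with JQ1, the mean of probe sets gave -0.600 for Pfkp over Pfkm (adjusted p = 0.0133 by the exact permutation test), 0.427 for Pfkl over Pfkm and -0.101 for Pfkfb3 over Pfkfb2 (adjusted p = 0.0075 each by that test), and quantile normalization gave 0.664 for Pfkl over Pfkm (adjusted p = 0.0086), so that these passed. The cause was not tested. With 1 array left out, PE ratio changes ranged from -0.377 to -0.298 (Slc2a1 over Slc2a4), 1.232 to 1.413 (Pfkp over Pfkm), 0.743 to 0.836 (Pfkl over Pfkm), 0.272 to 0.535 (Pfkfb3 over Pfkfb2), -1.973 to -1.454 (Aldoc over Aldoa), -0.832 to -0.688 (Pgam2 over Pgam1), 0.975 to 1.167 (Eno3 over Eno1), 0.263 to 0.298 (Ldha over Ldhb), 1.166 to 1.361 (Slc16a3 over Slc16a1), 0.624 to 0.716 (Pdk1 over Pdk2) and -0.663 to -0.581 (Pygb over Pygm). Without any 1 of the 90 min arrays none passed, since 21 arrangements remain. The 6 JQ1 ratio calls held with each array left out.

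Hk2 and Pfkfb1 lay below the dim limit on average, as did Pfkfb2 with PE in DMSO and Slc16a7 with JQ1, and there signal over background limits what a change can show. Of 1330 single values with 1 array left out, 80 lost a call and 14 gained one.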
